A study of Mus musculus with 2 samples.

Results

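Nuclear genes for subunits of the mitochondrial respiratory chain were compared between mouse NIH 3T3 fibroblasts given a plasmid for the transcription factor ATCE1 and NIH 3T3 fibroblasts given the empty plasmid. The genes were taken by symbol: Nduf, Uqcr, Cox4 to Cox8 and Atp5 stems, Sdha to Sdhd, Cyc1 and Cycs, on probe sets with exactly 1 gene symbol. This gave 160 of 22690 probe sets and 86 of 12393 named genes, of which 80 were measured in the sense given below.

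The ATCE1 culture carried pHA-CMV-ATCE1-C-del, which expresses ATCE1 without its C terminus, a form the submitters describe as nuclear. The empty vector culture carried pHA-CMV alone. Both were introduced with Lipofectamine, and total RNA was taken 48 hours later. ATCE1 belongs to the CREB family of basic leucine zipper factors, and its gene is now called Creb3l4. Each condition had 1 array. Replicate error is therefore unknown for every value, and nothing could be tested. Changes were instead read by fixed sizes of 1.5-fold and 1.2-fold. NIH 3T3 is an established embryonic fibroblast line, transfection was transient, and no source used here states the share of cells that took up plasmid. A bulk signal cannot tell fewer expressing cells from less RNA per cell.

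The respiratory chain lies in the inner mitochondrial membrane. Complex I oxidises NADH and complex II oxidises succinate. Both pass electrons through coenzyme Q to complex III, then through cytochrome c to complex IV, which reduces oxygen. Complexes I, III and IV pump protons, and complex V, the ATP synthase, uses the gradient to make ATP. A few core subunits are encoded by mitochondrial DNA and all others by the nucleus. In mammals many of the nuclear genes are known targets of the factors Nrf1, Gabpa and Yy1, and CREB is known to act on the promoter of Cycs.

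The single Creb3l4 probe set had a MAS5 signal of 18.0 in the ATCE1-C-del culture and 20.7 in the empty vector culture, both far below the level called measured here. No source used here places its probes on the truncated ATCE1 sequence, so these signals do not check the labels. A gene was called measured if its brightest probe set reached the array's own median, 77.4 with ATCE1-C-del or 75.8 with empty vector, on at least 1 array. All 12 fibroblast markers examined were measured, among them Col1a2 and Vim. None of the 9 epithelial, 9 muscle, 7 endothelial and 9 spermatid markers on the arrays was measured. Of 7 macrophage markers 2 were, Cd14 at 115.7 with ATCE1-C-del against 104.1 with empty vector and Cd68 at 81.5 with ATCE1-C-del against 50.8 with empty vector, and of 6 adipocyte markers only Lpl was, at 276.7 with ATCE1-C-del against 392.0 with empty vector.

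No respiratory chain gene differed 1.5-fold in either direction, except that 4 were higher by that much when the arrays were scaled to the hybridisation controls and 1 when the floor was lowered, as given under the processing settings. Over all 6809 measured genes, 0.925% (63 genes) were higher by 1.5-fold or more with ATCE1-C-del and 1.07% (73 genes) lower. Scaled to array medians, that split was 46 higher and 90 lower, and scaled to the hybridisation controls 407 and 13. At the rates of 0.925% and 1.07%, a group of 80 would hold less than 1 such gene in each direction. The 80 genes had a median log2 ratio (ATCE1-C-del divided by empty vector) of 0.02, against -0.01 for all measured genes. Of them 43 were higher and 37 lower. Log2 ratios above 0 made up 48.7% of all measured genes and 53.8% of the respiratory chain genes. The direction depends on the scaling. With lowess the median was -0.0091 for the 80 genes and -0.0043 for all measured genes. With array medians it was -0.0078 for the 80 genes and -0.0360 for all measured genes. The split was 38 higher and 42 lower after scaling to array medians or lowess, 40 and 40 after quantile normalization, and 74 and 6 after scaling to the hybridisation controls. The 18 hybridisation control probe sets had a median log2 ratio of -0.25, and scaling to them moved the median of all measured genes to 0.24 and that of the respiratory chain genes to 0.27. Directions below are therefore relative to the array as a whole. They are signs against 0 after scaling to trimmed means, unless another scaling is named.

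At 1.2-fold, 7 genes were higher and 6 lower. These shares of the 80 genes, 8.75% and 7.5%, stand beside 9.4% higher and 12.3% lower among all measured genes. The higher ones were Ndufaf5, Atp5g1, Uqcrc1, Cox6c, Ndufb1, Cox5b and Cox8c. The lower ones were Ndufa10, Ndufv3, Cox7a2l, Atp5md, Ndufb8 and Ndufa13. The log2 ratios of all 80 ran from -0.36 to 0.42 with an SD of 0.17 across genes, whereas all measured genes had an SD of 0.23. Respiratory chain transcripts were bright, and 73 of the 80 were above the 75th percentile of both arrays, 308.5 with ATCE1-C-del against 315.0 with empty vector. Among the 3386 genes that bright, the SD was 0.20, with 5.61% higher and 8.62% lower by 1.2-fold or more. The 73 bright respiratory chain genes had an SD of 0.16, with 5.48% higher and 8.22% lower at that size.

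**Figure D1:**
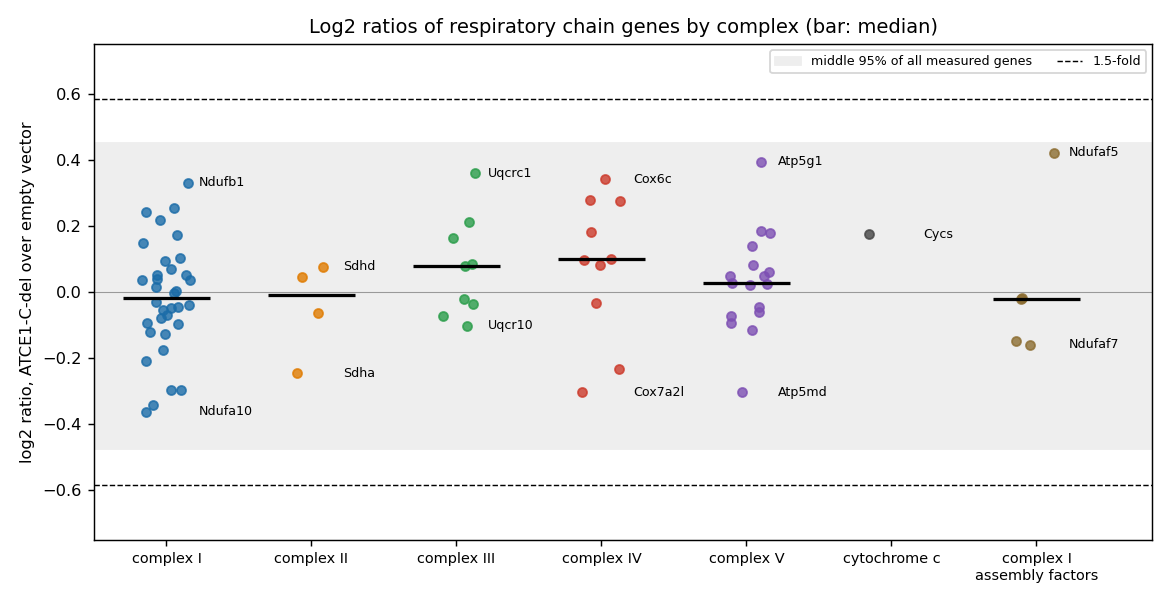
Log2 of the ATCE1-C-del signal divided by the empty vector signal (vertical axis) for each measured respiratory chain gene, grouped by complex, with a black bar at each group's median. Grey marks the middle 95% of all measured genes, and all 80 genes lie inside the dashed 1.5-fold lines, from Ndufa10 at -0.36 to Ndufaf5 at 0.42, by the scaling to trimmed means.

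Complex I contributed 34 genes, all measured, with a median log2 ratio of -0.02. Of these, 16 were higher and 18 lower. The 6 measured core subunits, which carry the electron path and have bacterial relatives, ran from -0.07 to 0.15 on their brightest probe sets. Ndufs1, an iron-sulfur subunit, was 1.11-fold higher, at 872.6 with ATCE1-C-del against 788.0 with empty vector. Ndufv1, which binds NADH and the flavin, was level at 1400.2 with ATCE1-C-del against 1404.9 with empty vector. Ndufs8 and Ndufs7, which carry iron-sulfur clusters near the quinone site, had log2 ratios of 0.09 and -0.04. Ndufs3 stood at 0.04 and Ndufv2, another iron-sulfur subunit, at -0.07. None of the 6 core genes reached 1.2-fold on these probe sets. Other probe sets of the same genes ranged more widely, from -0.19 to 0.10 for Ndufs8, from -0.03 to 0.22 for Ndufv2 and from 0.12 to 0.18 for Ndufv1, and the other one for Ndufs7 stood at -0.16.

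The 28 accessory subunits of complex I, which surround the core, ran from -0.36 to 0.33, with a median of -0.04. Ndufa10, related to nucleoside kinases, was 1.29-fold lower, at 1395.9 with ATCE1-C-del against 1795.4 with empty vector. Ndufv3, at the NADH-oxidising tip, was 1.27-fold lower, at 1394.6 with ATCE1-C-del against 1768.1 with empty vector. Ndufb8 was 1.23-fold lower, at 1539.3 with ATCE1-C-del against 1892.9 with empty vector, and belongs to the membrane arm. Ndufa13, also known as Grim19, was likewise 1.23-fold lower, at 1874.2 with ATCE1-C-del against 2304.3 with empty vector. At the other end, Ndufb1 of the membrane arm was 1.26-fold higher, at 171.9 with ATCE1-C-del against 136.7 with empty vector. Ndufs5 was 1.19-fold higher, at 141.0 with ATCE1-C-del against 118.3 with empty vector. The remaining accessory genes lay within 1.2-fold on their brightest probe sets, though another probe set of Ndufb5 stood at -0.41. Among them were Ndufa4 at 0.17, which is now counted with complex IV, and the acyl carrier protein gene Ndufab1 at -0.03. Ndufs4, a subunit lost in a form of human Leigh syndrome, stood at 0.02. No accessory gene lay outside the middle 95% of all measured genes, which ran from -0.48 to 0.45.

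**Figure D2:**
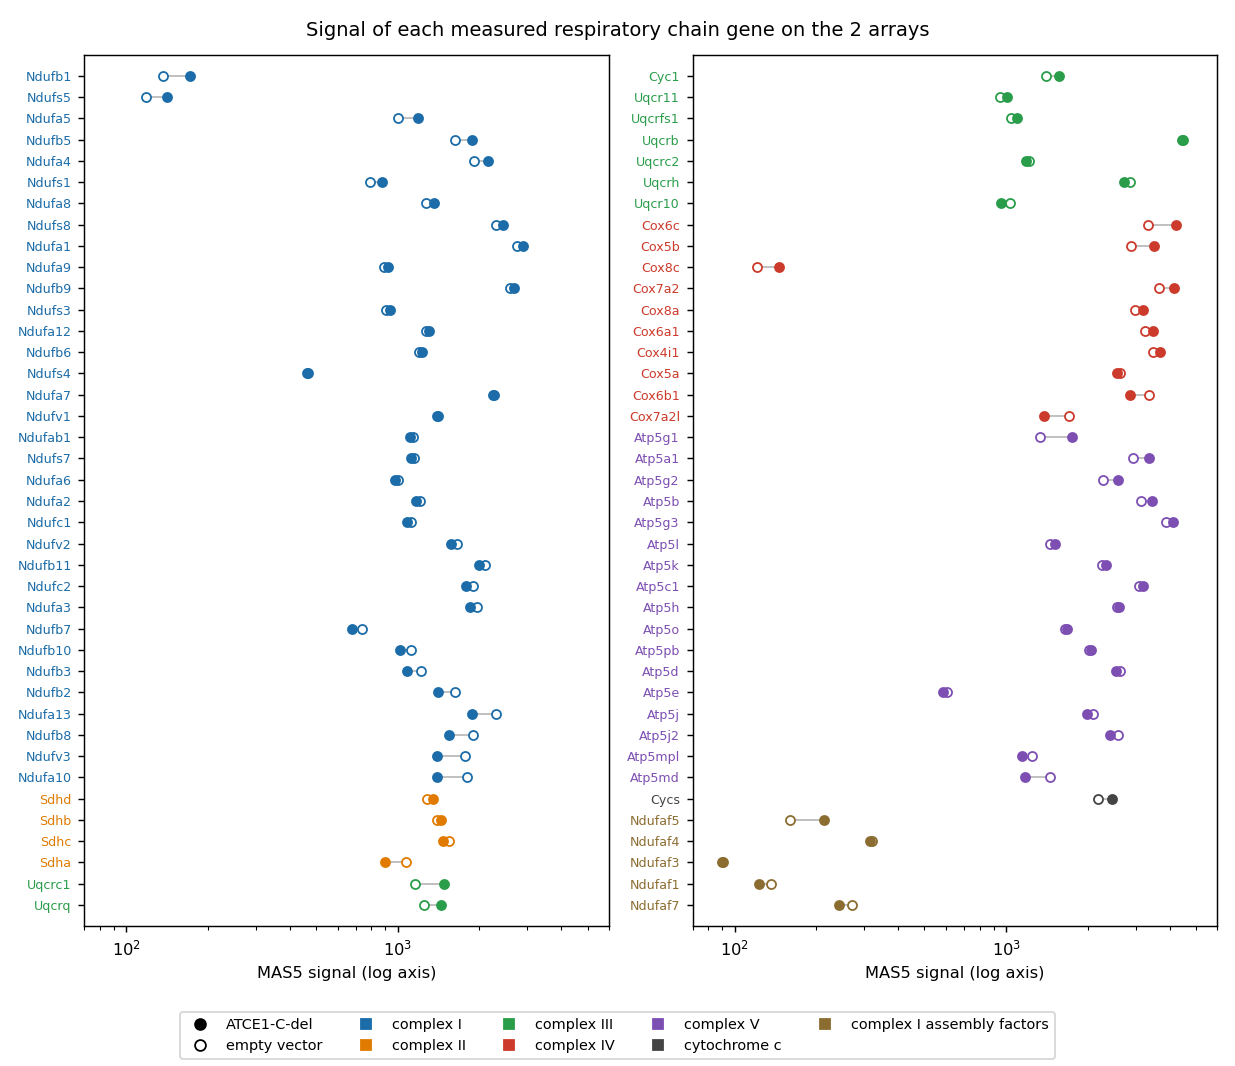
MAS5 signal (horizontal log axis) of each measured gene on the ATCE1-C-del array (filled) and the empty vector array (open), ordered by complex and, within each, by ratio. Most pairs nearly coincide, and Atp5g1 (1748.5 with ATCE1-C-del against 1331.2 with empty vector) and Ndufa10 (1395.9 with ATCE1-C-del against 1795.4 with empty vector) are among the widest.

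Assembly factors named Ndufaf, which help build complex I and are not part of it, gave 4 lower and 1 higher of 5. Ndufaf5, which modifies Ndufs7 during assembly, had the highest ratio of all 80 genes, 1.34-fold higher at 214.2 with ATCE1-C-del against 160.0 with empty vector. The others, Ndufaf7, Ndufaf1, Ndufaf3 and Ndufaf4, lay between -0.16 and -0.02.

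Complex II, succinate dehydrogenase, has 4 nuclear subunits and no mitochondrial one. The flavoprotein gene Sdha was 1.19-fold lower, at 900.9 with ATCE1-C-del against 1068.2 with empty vector. The iron-sulfur subunit gene Sdhb was level at 1442.0 with ATCE1-C-del against 1398.0 with empty vector. The membrane anchor genes Sdhc and Sdhd stood at -0.06 and 0.08, which left the complex with a median of -0.01. Its probe sets disagreed: another one for Sdha stood at 0.15 on the log2 scale and another for Sdhc at -0.44, the lowest of all 136 measured probe sets of the chain.

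Complex III gave 5 higher and 4 lower of 9 genes, with a median of 0.08. Uqcrc1, one of its large core proteins, was 1.28-fold higher, at 1478.8 with ATCE1-C-del against 1153.4 with empty vector. The other, Uqcrc2, was level on its brightest probe set, at 1186.7 with ATCE1-C-del against 1217.1 with empty vector. Another probe set of Uqcrc2 stood at 0.16 on the log2 scale. The cytochrome c1 gene Cyc1 was 1.12-fold higher, at 1569.3 with ATCE1-C-del against 1401.7 with empty vector, and the Rieske iron-sulfur gene Uqcrfs1 1.06-fold higher. Small subunit genes ran from Uqcr10 at -0.10 through Uqcrh (-0.07), Uqcrb (-0.02) and Uqcr11 (0.08) to Uqcrq at 0.21. Another probe set of Uqcrb stood at -0.23. Cycs, the mobile carrier between complexes III and IV, was 1.13-fold higher at 2450.4 with ATCE1-C-del against 2171.6 with empty vector, and its other measured probe sets gave 0.14 and 0.15.

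Complex IV had a median of 0.10, with 7 of 10 measured genes higher and 3 lower. Complex III had the higher median with quantile normalization (0.09, against 0.03 for complex IV), with lowess (0.08 against 0.03) and with the mean over a gene's probe sets (0.079 against 0.076), so the complexes have no fixed order. Cox6c was 1.27-fold higher, at 4219.7 with ATCE1-C-del against 3330.4 with empty vector. Cox5b, a zinc-binding subunit, was 1.21-fold higher, at 3495.0 with ATCE1-C-del against 2880.1 with empty vector. Both had other probe sets that lay elsewhere, at -0.03 for Cox6c and from -0.11 to 0.06 for Cox5b. Cox7a2 (0.18), Cox8a (0.10), Cox6a1 (0.10) and Cox4i1 (0.08) were slightly higher and Cox5a (-0.03) level. Cox6b1 was 1.18-fold lower, at 2863.0 with ATCE1-C-del against 3364.3 with empty vector. Cox7a2l, whose product joins complexes III and IV in supercomplexes, was 1.23-fold lower, at 1383.4 with ATCE1-C-del against 1708.3 with empty vector, with its other probe sets at -0.04 and 0.06.

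Tissue isoforms of complex IV were nearly all below the level called measured. Cox4i2 of lung, the muscle and heart isoforms Cox6a2, Cox7a1 and Cox8b and the testis isoform Cox6b2 had signals of at most 37.3 with ATCE1-C-del against 41.9 with empty vector. The testis isoform Cox8c was measured, at 146.3 with ATCE1-C-del against 120.9 with empty vector, 1.21-fold higher. Both named probe sets of Cox7c were below it as well, the brighter at 24.5 with ATCE1-C-del against 23.0 with empty vector, so no ratio is given for that ubiquitous subunit.

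Complex V gave 11 higher and 6 lower of 17 genes, with a median of 0.03. The split turned to 7 higher and 10 lower with lowess and to 8 and 9 with array medians or quantile normalization. The median was below 0 in all 3. With array medians the complex stayed above all measured genes (-0.0034 against -0.0360), as with quantile normalization (-0.0009 against -0.0022). With lowess it was below them (-0.0146 against -0.0043). The catalytic head held Atp5a1 at 3347.2 with ATCE1-C-del against 2943.9 with empty vector, 1.14-fold higher, and Atp5b, which carries the catalytic sites, at 3445.9 with ATCE1-C-del against 3129.0 with empty vector, 1.10-fold higher. Another probe set of Atp5a1 stood at 0.02 on the log2 scale. Atp5c1, Atp5d and Atp5e, smaller subunits of the same F1 part as Atp5a1 and Atp5b, were level, between -0.06 and 0.05. Another probe set of Atp5d stood at 0.07. The 3 genes Atp5g1, Atp5g2 and Atp5g3 all encode the same mature c subunit of the rotor ring, with different import sequences. Atp5g1 was 1.31-fold higher, at 1748.5 with ATCE1-C-del against 1331.2 with empty vector. Atp5g2 was 1.13-fold higher, at 2572.1 with ATCE1-C-del against 2273.5 with empty vector, and Atp5g3 1.06-fold higher, at 4102.6 with ATCE1-C-del against 3877.0 with empty vector. All 3 lay on the same side by trimmed means, each read by 1 probe set above the array medians, but with lowess Atp5g3 turned marginally below 0. The stalk genes Atp5pb, Atp5o, Atp5h and Atp5j lay between -0.07 and 0.03 on their brightest probe sets. Other probe sets stood at -0.23 for Atp5h, 0.08 for Atp5pb and 0.09 for Atp5o. Small membrane subunits ran from Atp5md, 1.23-fold lower at 1178.2 with ATCE1-C-del against 1454.5 with empty vector, through Atp5mpl (-0.11) and Atp5j2 (-0.10) to Atp5k (0.05) and Atp5l (0.06).

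**Figure D3:**
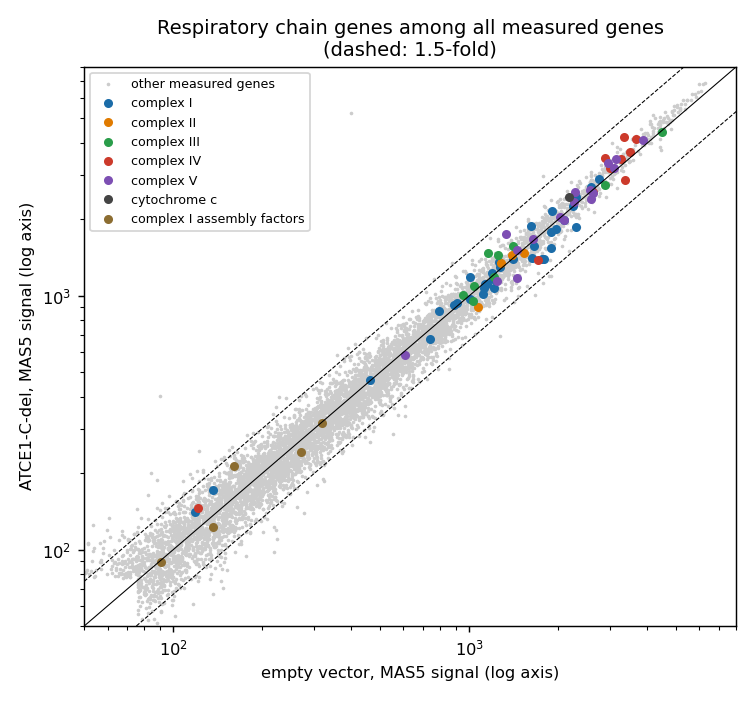
Signal on the ATCE1-C-del array (vertical log axis) against the empty vector array (horizontal log axis) for all measured genes with signals of at least 50 on both, respiratory chain genes coloured by complex. Most coloured points fall in the bright part of the cloud, and all lie inside the dashed 1.5-fold lines.

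Some genes had a second probe set above the median on both arrays. Among 38 such respiratory chain genes, the ratios of the 2 brightest probe sets had a Pearson r of -0.07 and a Spearman rho of -0.01 across genes, given as a description because the probe sets share 2 arrays. Over the 2451 genes with such a pair on the whole array, r was 0.29 and rho 0.28. Both ratios fell on the same side of 0 for 19 of the 38 genes, against 60.2% of the 2451. From the differences within pairs, 1 probe set carried an SD of 0.15, close to the SD of 0.14 between the 38 genes themselves. For the 2451 genes these values were 0.20 and 0.22. Ndufb5 disagreed most, with 0.22 on one probe set and -0.41 on the other. The spread between the 38 respiratory chain genes was thus about the size of the spread between probe sets of the same gene. Of the 13 genes at 1.2-fold, 10 had no second measured probe set, and Cox6c, Cox5b and Cox7a2l had others that were nearer level.

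**Figure D4:**
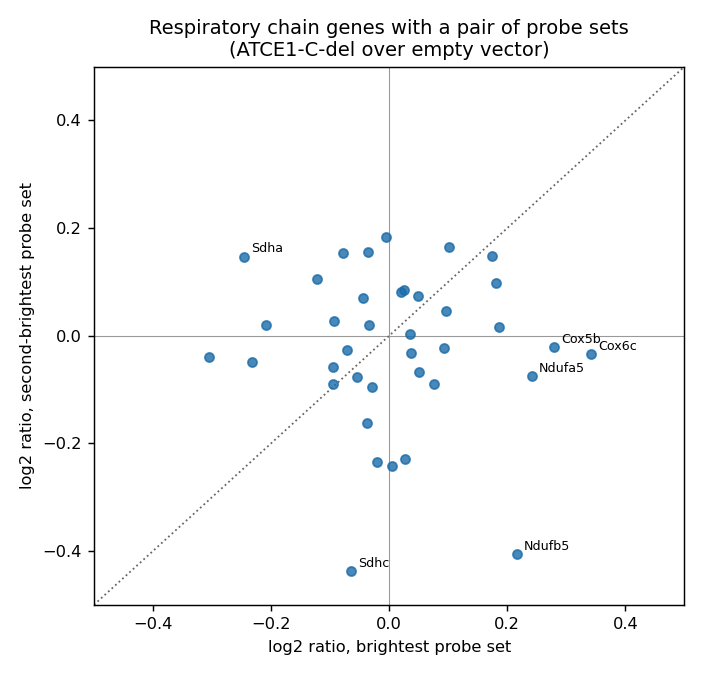
Log2 ratio of the second-brightest probe set (vertical axis) against that of the brightest (horizontal axis) for the 38 respiratory chain genes with both measured, the dotted line marking equality. The points show no trend (r of -0.07), and Ndufb5, at 0.22 and -0.41, lies farthest from the line.

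Promoter sequences from RefSeq (GRCm38.p6) were available for 71 of the 86 genes as 76 windows from 250 bases before to 50 after a gene start, and they were searched on both strands for sites of factors known to act on such genes. The full cAMP response element TGACGTCA, to which CREB proteins bind, was present in 4 of the 76 windows, 5.26%, against 1.79% of all 32851 windows. The variant TGACGTG was in none of the 76 and in 2.01% of all, and a match to one is never at the same position and strand a match to the other. Overlaps at the edges of motifs were allowed. The windows with a full element are shown because they are where a CREB-type factor would be looked for first, without the bases after the start. They are Cycs (chr6:50566570-50566819, minus strand), Ndufa10 (chr1:92473759-92474008, minus strand), Ndufb2 (chr6:39592315-39592564, plus strand) and Uqcrfs1 (chr13:30545317-30545566, minus strand), each written 5′ to 3′ along the gene with the element in capitals.
Cycs: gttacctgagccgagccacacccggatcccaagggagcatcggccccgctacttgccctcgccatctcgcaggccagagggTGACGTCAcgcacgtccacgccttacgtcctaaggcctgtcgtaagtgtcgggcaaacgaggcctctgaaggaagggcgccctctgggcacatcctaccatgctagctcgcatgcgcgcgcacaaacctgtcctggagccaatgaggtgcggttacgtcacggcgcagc
Ndufa10: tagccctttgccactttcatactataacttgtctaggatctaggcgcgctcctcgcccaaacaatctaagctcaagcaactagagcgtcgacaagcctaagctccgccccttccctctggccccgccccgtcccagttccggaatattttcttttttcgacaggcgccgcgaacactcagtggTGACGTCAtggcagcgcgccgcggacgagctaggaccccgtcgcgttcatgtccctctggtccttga
Ndufb2: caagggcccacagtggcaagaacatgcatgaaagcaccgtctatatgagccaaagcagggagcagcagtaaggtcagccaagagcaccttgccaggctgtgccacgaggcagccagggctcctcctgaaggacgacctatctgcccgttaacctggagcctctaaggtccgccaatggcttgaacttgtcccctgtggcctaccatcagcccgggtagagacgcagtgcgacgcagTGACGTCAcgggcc
Uqcrfs1: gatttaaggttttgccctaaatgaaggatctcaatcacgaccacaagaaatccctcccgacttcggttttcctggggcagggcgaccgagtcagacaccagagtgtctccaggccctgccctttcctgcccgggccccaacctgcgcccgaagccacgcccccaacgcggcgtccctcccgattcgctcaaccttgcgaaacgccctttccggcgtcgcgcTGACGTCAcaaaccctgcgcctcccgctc
The element began 169 bases before the start in Cycs, 67 in Ndufa10, 14 in Ndufb2 and 29 in Uqcrfs1. The ratios of these 4 genes lay on both sides of 0, with Cycs at 0.17 and Uqcrfs1 at 0.08 higher, Ndufb2 at -0.21 and Ndufa10 at -0.36 lower. Another measured probe set of Ndufb2 stood at 0.02. The median of the 4 genes was -0.07, against 0.02 for the 63 other measured genes with a window. Binding was not measured.

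Sites of the known respiratory chain regulators were more frequent in these windows than in all windows. The Nrf1 motif was in 22.4% of the 76 against 4.6% of all, the ETS motif CCGGAAG of Gabpa in 23.7% against 8.86%, and the Yy1 motif AAGATGGC in 11.8% against 2.75%. In a comparison added after the data were seen, 13 of 16 measured genes with the Nrf1 motif were higher, with a median of 0.08. Of 51 without it, 22 were higher, with a median of -0.03. Among all measured genes, with or without the motif, 48.7% were higher. The Nrf1 genes include Uqcrc1, Ndufaf5, Atp5g2 and Atp5g3 as higher ones and Sdha as a lower one. Second-brightest probe sets had the opposite sign for Atp5h (-0.23), Ndufa5 (-0.08), Sdhd (-0.09) and Sdha (0.15). They had the same sign for Atp5k, Atp5o and Cox6a1. Ndufs5 counts as higher at 0.25, but a brighter probe set shared with its pseudogene stood at -0.04. With lowess 11 of 16 were higher and the median with the motif was 0.02, against -0.04 without. The 18 genes with the ETS motif had a median of 0.04 and the 9 with the Yy1 motif -0.05. The difference between genes with and without a motif was not tested.

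Genes that serve the same organelle were also close to level. Of 29 measured respiratory chain assembly factors, 13 were higher and 16 lower, with a median of -0.03 and none at 1.5-fold. Coa5, needed for complex IV, was 1.44-fold lower at 828.0 with ATCE1-C-del against 1191.2 with empty vector, but its other probe set stood at 0.46. Cox20, a chaperone of a complex IV core subunit, was 1.32-fold lower at 575.6 with ATCE1-C-del against 757.5 with empty vector, Cox19 1.26-fold lower, and Ttc19, which acts on complex III, 1.24-fold higher. Among 16 regulators of mitochondrial gene expression, 9 were higher, with a median of 0.04. Myc was 1.29-fold higher, at 331.8 with ATCE1-C-del against 256.9 with empty vector, and Gabpb1, a partner of Gabpa, 1.16-fold higher. Nfe2l1, a different gene from the respiratory chain regulator Nrf1, was 1.22-fold lower. Nrf1 itself was 1.05-fold higher, at 111.1 with ATCE1-C-del against 105.4 with empty vector. Yy1 stood at -0.26 on the log2 scale, at 953.1 with ATCE1-C-del against 1140.4 with empty vector, with other probe sets at 0.12 and -0.04.

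The TCA cycle and pyruvate dehydrogenase list had 12 of 20 higher and a median of 0.06. Pdk4, a kinase that inhibits pyruvate dehydrogenase, was 1.47-fold lower at 201.9 with ATCE1-C-del against 297.6 with empty vector, and Pdk1 of the same family 1.14-fold lower. The dehydrogenase subunit genes Dld and Pdha1 had log2 ratios of 0.27 and 0.23. Carriers and porins had 9 of 11 higher with a median of 0.10, such as the porin gene Vdac2 at 1.19-fold, the ADP/ATP carrier gene Slc25a5 at 1.13-fold and Slc25a10 at 1.12-fold. Slc25a20, the carnitine-acylcarnitine carrier, was the single gene of these lists past 1.5-fold, 1.65-fold lower at 87.1 with ATCE1-C-del against 143.5 with empty vector, and its other probe set stood at 0.11. Coenzyme Q and heme synthesis had 11 of 14 higher (median 0.08), led by Ppox at 1.36-fold (109.0 with ATCE1-C-del against 80.4 with empty vector), Coq4 at 1.23-fold and Alas1 at 1.17-fold, with Coq5 1.10-fold lower. Import and folding genes had 17 of 24 higher (median 0.06). Timm8a1 was 1.36-fold higher at 868.7 with ATCE1-C-del against 639.0 with empty vector with its other probe set at 0.39, Timm23 and Timm13 were 1.19-fold and 1.16-fold higher, and Timm17b 1.16-fold lower. The glycolysis list had 10 of 16 higher (median 0.06). Eno3 was 1.37-fold and Aldoa 1.27-fold higher, and Hk1 and Hk2 were 1.24-fold and 1.21-fold lower. The 16 include Pigq, at -0.15 on the log2 scale, which came in by name matching and is not a glycolysis gene. This count and median are therefore not of glycolysis genes alone. Apart from Slc25a20, no measured gene of these 7 lists reached 1.5-fold. Beside these splits, 48.7% of all measured genes were higher. Array medians, which lowered all measured genes as well, gave 14 higher and 10 lower for import and folding. They gave 10 and 4 for coenzyme Q and heme synthesis and 8 and 8 for glycolysis. The TCA cycle list stayed at 12 and 8 and the carriers at 9 and 2.

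Of the subunits encoded by mitochondrial DNA, 1 was named on the arrays, ND5 of complex I. It was 1.32-fold higher on its single probe set, at 3996.5 with ATCE1-C-del against 3029.5 with empty vector. That ratio lay above those of all 34 nuclear complex I genes, the highest being Ndufb1 at 0.33 on the log2 scale against 0.40 for ND5.

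**Figure D5:**
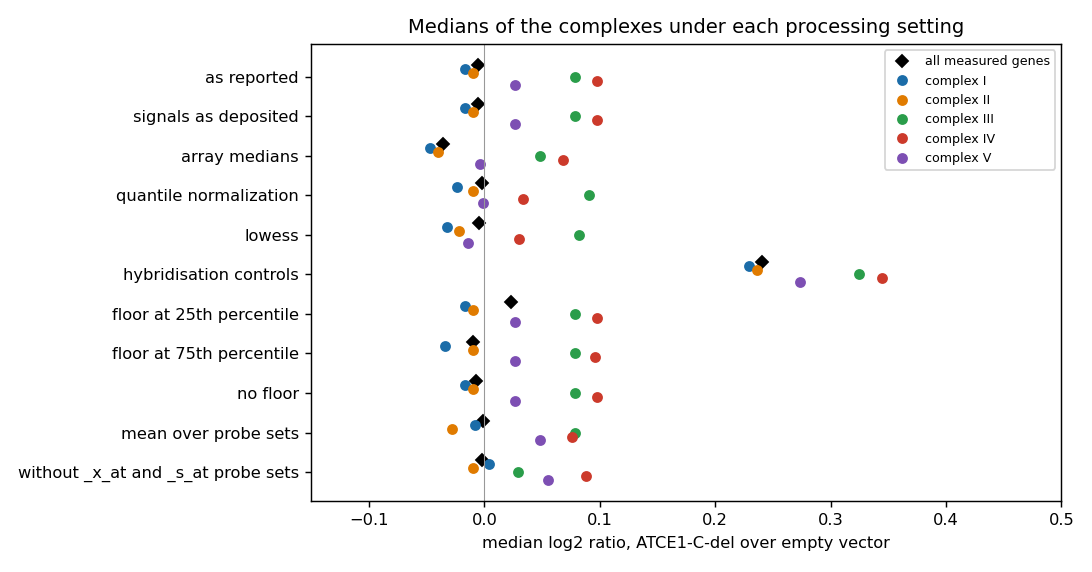
Median log2 ratio, ATCE1-C-del divided by empty vector (horizontal axis), of complexes I to V and of all measured genes (black diamonds) under each processing setting. Scaling to the hybridisation controls shifts all 6 medians alike, to 0.24 for all genes, and the other settings leave the complex medians between -0.05 and 0.10.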

How the data were processed

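RNA from 1 ATCE1-C-del culture and 1 empty vector culture was hybridised to 1 Affymetrix array each. The deposited intensity values were made with MAS5, per the submitters' processing notes, and are linear. No source used here gives the MAS5 version, scaling target or detection calls. Trimmed means (2% at each end) were 250.1 on both arrays, and each array was divided by its own. Signals under the array's median were set to that median, and log2 ratios of ATCE1-C-del over empty vector were taken. A gene with several probe sets was read by the brightest one (mean of log2 signals). Probe set symbols came from the platform annotation: 1 symbol for 20393 probe sets, several for 691, none for 1606. Entrez IDs matched to RefSeq (GRCm38.p6) changed 0 symbols.

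With 1 array per group, no error, test or p-value exists, and the number of arrays limits the precision. Depth does not apply to arrays. In the text, names were given to Creb3l4, mitochondrially encoded genes and every respiratory chain gene outside the accessory subunits of complex I. Only some of those accessory subunits were named. Up to 4 genes per further list were named, by size of ratio above the medians on both arrays. Nrf1 and Pigq were named in addition. The genes, lists and motifs were chosen with earlier results of these data known. Alternatives covered scaling (as deposited, medians, quantile, lowess with a span of 0.3, hybridisation controls), the floor (25th or 75th percentile, none with a pseudocount of 1), the fold, the probe set per gene and the place of Ndufa4. The Nrf1 comparison was added after the data were seen. The procedure was tested on simulated data. Computation used pandas 2.3.3, numpy 2.4.6 and scipy 1.17.1 in Python 3.11.15, with lowess from statsmodels 0.14.6 and plots from matplotlib 3.10.9.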

Additional observations from a re-analysis of the deposited data

How the results depend on the processing

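No paired analysis was possible because each group has 1 array, and for the same reason no array could be left out. A median counted as moved when it changed by at least 0.1 (log2). Scaling to the hybridisation controls moved every group median, to 0.27 for all respiratory chain genes and to 0.23, 0.24, 0.32, 0.34 and 0.27 for complexes I to V. It moved the lists to 0.22 for assembly factors, 0.29 for regulators, 0.30 for the TCA cycle, 0.34 for carriers, 0.32 for coenzyme Q and heme synthesis, 0.31 for import and 0.30 for glycolysis, and all measured genes to 0.24. No other setting moved a median of these groups by that much. Signs changed within that limit, but array medians lowered all measured genes as well, to -0.0360. The median of all respiratory chain genes, 0.02 as reported, was -0.0078 with array medians and -0.0091 with lowess. Complex V, at 0.03, was -0.0034 with array medians, -0.0009 with quantile normalization and -0.01 with lowess. Complex I, at -0.02, was 0.004 without probe sets that can match several transcripts. Regulators, at 0.04, were -0.02 with the floor at the 75th percentile, and assembly factors, at -0.03, were 0.004 with the mean over probe sets. Counts depended more on the settings. With the hybridisation controls 4 respiratory chain genes passed 1.5-fold, all higher (Ndufaf5, Atp5g1, Uqcrc1 and Cox6c), and 420 of all genes did, 407 higher and 13 lower. With the floor at the 25th percentile 1 did, Cox4i2 at 14.8 with ATCE1-C-del against 4.9 with empty vector, and 1088 of all genes, 803 higher and 285 lower. As reported, 136 of all genes passed, 63 higher and 73 lower. The split was 46 and 90 with array medians. With the floor at the 75th percentile 28 passed, 9 higher and 19 lower. At 1.2-fold, 13 respiratory chain genes and 1476 of all genes passed, and at 2-fold 0 and 7.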

Other observations

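Further probe sets of the same gene stems carry several symbols and were left out above. Of 8, 6 were measured, with log2 ratios from -0.10 to 0.08. They read Ndufb4 with its copies (-0.10 and 0.0007), Ndufa11 (0.08), Ndufs6 (-0.04), Ndufs5 with its pseudogene (-0.04) and Ndufab1 with its pseudogene (-0.04). The probe set for Ndufs5 alone had a log2 ratio of 0.25, at 141.0 with ATCE1-C-del against 118.3 with empty vector, where the shared one read 705.8 with ATCE1-C-del against 725.5 with empty vector. Of the 80 measured genes, 16 were read by a probe set whose name marks possible matches to several transcripts.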
